A study of Mus musculus with 18 samples.

Results

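Killer cell lectin-like receptors are the C-type lectin-like proteins of the natural killer (NK) gene complex, and their transcripts were followed in mouse spleen with and without a breast tumour. Every row whose symbol begins with Klra, Klrb, Klrc, Klrd, Klre, Klrg, Klrh, Klri or Klrk was taken, which gave 31 of the 56876 genes in the table. Of these, 21 were expressed, here meaning a level of at least 1 TPM (a length-corrected share of all transcripts in a library) in at least 3 libraries.

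Splenocytes came from female Balb/c mice, of which some carried 4T1 cells, a mammary carcinoma line grafted into the mammary pad. Antibody to G-CSF, antibody to PD-1 or anti-IgG was injected at 10 mg/kg on days 18, 21 and 24, and spleens were collected on day 29. The sample titles give 18 libraries in 6 groups of 3: T_GC, T_P and T_I from mice labelled as tumour-bearing, and N_GC, N_P and N_I from mice labelled WT. No label spells out GC, P or I, although their initials correspond to the 3 antibodies, so groups are named by code. Other label fields disagree with the titles, by which the groups were formed: an anti-PD-1 treatment tag stands on every T library, and a tumour-bearing tag stands on all 18. Replicate numbers are the animal or sample numbers in the titles, and nothing more is stated about how the samples of a group are related, so p-values measure the spread between these samples. A 4T1 graft is a single cell line in 1 mouse strain.

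These receptors let NK cells and some T cells weigh activating against inhibitory signals before killing a target. The Klra genes encode the Ly49 receptors, most of which bind MHC class I; the Klrc products pair with Klrd1 (CD94) and read the class Ib molecule Qa-1; Klrk1 (NKG2D) binds stress-induced ligands; the Klrb1 genes encode NKR-P1 receptors for Clec2 proteins. Klra17 (Ly49Q) and Klra2 (Ly49B) are known as the exceptions, inhibitory receptors carried by myeloid cells and, for Klra17, plasmacytoid dendritic cells.

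Several of these genes are close copies of one another. RefSeq promoter windows of GRCm38.p6 were found for 17 of the 21 expressed genes. The Klra17 window was 81% identical to that of Klra4 (Ly49D, an activating NK receptor) and 76.3% identical to that of Klra2, counted over 300 bases from 250 before to 50 after the start site. The 250 bases before the start are shown for these genes because Klra17 and Klra2 moved against the rest of the family in the values that follow, whereas Klra4 moved with it. Capitals mark the C/EBP-type letters TTGCNNAA on either strand. All 3 lie on the minus strand of chromosome 6, Klra17 at chr6:129876673-129876922, Klra2 at chr6:131247363-131247612 and Klra4 at chr6:130067272-130067521, and each is printed 5′ to 3′.
Klra17: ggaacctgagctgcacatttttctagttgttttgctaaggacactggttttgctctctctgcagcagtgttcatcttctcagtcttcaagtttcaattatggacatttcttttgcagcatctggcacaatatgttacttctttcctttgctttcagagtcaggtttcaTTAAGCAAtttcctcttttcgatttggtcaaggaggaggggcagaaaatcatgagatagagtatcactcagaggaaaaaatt
Klra2: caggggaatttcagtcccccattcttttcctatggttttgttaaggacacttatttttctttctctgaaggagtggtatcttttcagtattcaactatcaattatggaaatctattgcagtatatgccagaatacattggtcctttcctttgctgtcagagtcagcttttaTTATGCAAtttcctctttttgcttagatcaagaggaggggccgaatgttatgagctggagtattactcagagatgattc
Klra4: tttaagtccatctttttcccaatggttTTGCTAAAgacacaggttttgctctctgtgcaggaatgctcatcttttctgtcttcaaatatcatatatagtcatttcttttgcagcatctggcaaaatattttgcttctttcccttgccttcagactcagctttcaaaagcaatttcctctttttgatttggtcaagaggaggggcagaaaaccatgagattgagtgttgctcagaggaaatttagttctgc
The match stood at position −82 in Klra17 and −79 in Klra2, both in the reverse orientation, and at −223 in Klra4 in the forward orientation. These letters occurred in the windows of 7 of the 17 matched receptor genes, namely Klra17, Klra2, Klra3, Klra4, Klra5, Klrc1 and Klrk1, and in 12.2% of all genes with a window. On both strands, the PU.1 letters GAGGAAGT and the T-box letters AGGTGTGA were in none of the 17 and in 3.69% and 1.48% of all genes, and the Runx letters TGTGGTT were in 3 (Klra1, Klre1 and Klrk1), against 6.09% of all genes. The ETS core AGGAAG, which the PU.1 letters contain, was in 7 of the 17 and in 38.4% of all genes. A match describes these letters in the reference strain and nothing about binding.

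The files were quantified on GRCm39, the genome of C57BL/6, whose Ly49 cluster differs from that of Balb/c in the number and sequence of its genes. Ly49H (Klra8) and Ly49D (Klra4), for instance, are known as receptors of C57BL/6 that Balb/c lacks. Klra8 was listed at 0 in all 18 libraries, as were Klra6, Klra10, Klra11-ps and Klrb1-ps1. Klra4 had values in 17 of 18 libraries, and which Balb/c gene gave reads to that row was not tested. The other 5 genes that were not expressed peaked at 0.16 TPM (Klra9), 0.24 (Klra14-ps), 0.63 (Klrh1), 0.64 (Klrg2) and 0.85 (Klrb1). Among transcripts of the GENCODE M21 annotation, stretches of 50 bases shared with another gene made up 38.6% of those of Klrc1, 36.3% of Klrc3, 27.2% of Klrb1b and 20.7% of Klra3, so how reads were divided among these copies is uncertain. That share was 0% for Klra17, Klra2, Klrb1f, Klrd1, Klrg1 and Klrk1.

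The spleens differed in cell content. Summed over 14 NK markers the level was 470 to 690 TPM in T_GC, 201 to 255 in T_P, 197 to 227 in T_I, 822 to 1208 in N_GC, 1010 to 1065 in N_P and 873 to 1196 in N_I. The sum of 18 neutrophil markers was 38261 to 61836 TPM in T_GC, 196931 to 212848 in T_P, 203781 to 211612 in T_I, 619 to 1281 in N_GC, 3136 to 5046 in N_P and 2309 to 7321 in N_I. Sums of 12 T cell markers were 622 to 928 TPM in T_GC, 179 to 225 in T_P and 222 to 233 in T_I, against 1241 to 2001 over the 9 N libraries. No marker of these lists was at 0 in any library. TPM of a library add to a constant, and median-of-ratios scaling shifted the all-gene median fold change (log2) of T_I over N_I by 0.43, of T_P over N_P by 0.39, of T_GC over N_GC by 0.08, of T_GC over T_I by −0.38 and of T_GC over T_P by −0.39. Fold changes below are on the scale of log2(TPM + 1), from limma over all 16635 genes tested with Benjamini-Hochberg adjusted p-values, and a gene is called at an adjusted p under 0.05. This scale understates changes of genes near 1 TPM.

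The family split in the tumour-bearing spleens of T_I, where Klra17 and Klra2 were higher than in N_I and the other 19 expressed receptors lower. In this comparison, 21 of 21 expressed receptors were called, 2 higher and 19 lower. Over all genes 69.8% were called, 17.4% higher and 52.4% lower, so a call by itself was common, and under the median-of-ratios scaling 5388 genes were higher and 4919 lower. The median log2 fold change was −1.88 for the receptors and −0.45 for all genes. The libraries of T_I and N_I did not overlap for 20 of the 21, Klrg1 being the exception, and for 73.4% of all genes. Under that scaling 2 receptors were higher and 16 lower. Fewer cells of a type and less RNA per cell cannot be told apart in whole splenocytes.

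**Figure D1:**
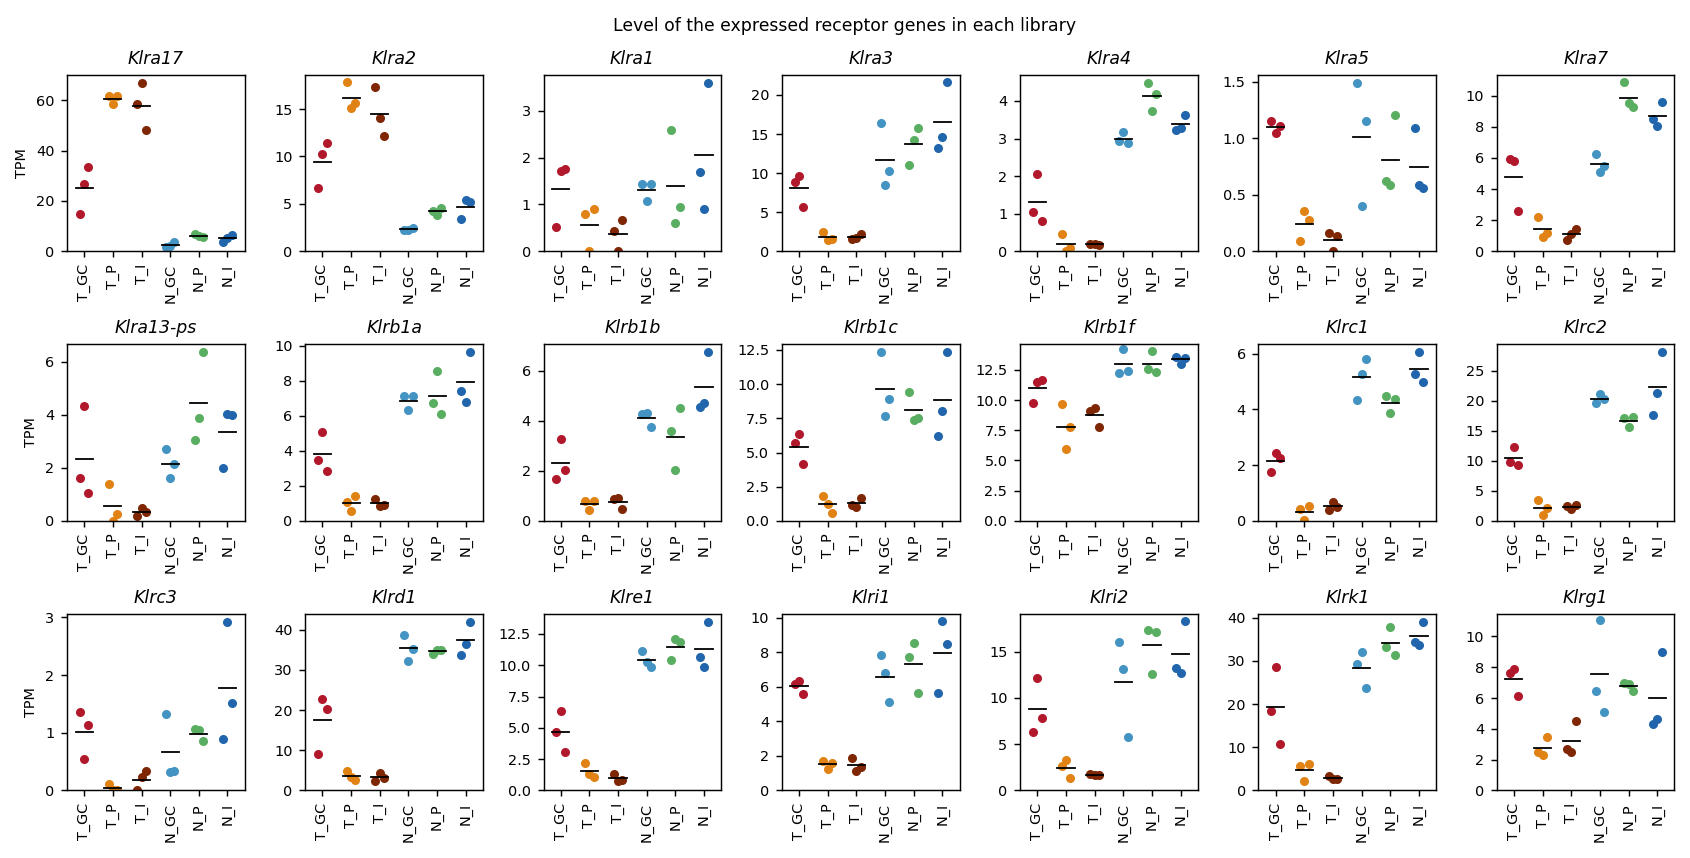
TPM (linear axis) of each of the 21 expressed receptor genes in the 18 libraries, by group; points are libraries and lines are means of 3. Klra17 and Klra2 are high in T_P and T_I and low in the N groups, and most other receptors are at their lowest in T_P and T_I, with T_GC between.

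Klra17 had the largest rise. Its level was 14.97, 26.9 and 33.6 TPM in T_GC, 61.8, 58.5 and 61.5 TPM in T_P and 58.6, 66.9 and 48.0 TPM in T_I. In the N spleens it was 1.76, 2.04 and 3.58 TPM in N_GC, 7.06, 6.21 and 5.51 TPM in N_P and 3.67, 5.33 and 6.64 TPM in N_I. Each T library thus stood above every N library, and the T_GC libraries stood below those of T_P and T_I. The log2 fold change was 3.26 ± 0.26 (SE, as for all fold changes here) in T_I against N_I (adjusted p = 3.59e-08). For T_P over N_P it was 3.09 (adjusted p = 5.77e-08), and for T_GC over N_GC 2.88 (adjusted p = 8.56e-07).

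Klra2 moved the same way over a smaller range. It had 6.71, 10.3 and 11.4 TPM in T_GC, 17.9, 15.1 and 15.6 TPM in T_P and 17.3, 14.1 and 12.1 TPM in T_I. The N libraries held 2.29, 2.27 and 2.48 TPM in N_GC, 4.21, 3.86 and 4.59 TPM in N_P and 3.37, 5.40 and 5.18 TPM in N_I. T and N libraries again did not overlap. It rose by 1.46 ± 0.18 log2 units in T_I against N_I (adjusted p = 3.87e-06), by 1.72 for T_P over N_P and by 1.62 for T_GC over N_GC.

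The ratio of Klra17 to Klra2 also differed, at 2.60 ± 0.360 in T_GC, 3.76 ± 0.261 in T_P and 4.03 ± 0.694 in T_I, against 1.04 ± 0.358 in N_GC, 1.50 ± 0.258 in N_P and 1.12 ± 0.150 in N_I (mean ± SD, n = 3 in every group of the study). Per 1000 TPM of the neutrophil list, Klra17 stood at 0.474 ± 0.107 TPM in T_GC, 0.298 ± 0.0123 in T_P and 0.279 ± 0.0452 in T_I, against 2.95 ± 0.296 in N_GC, 1.49 ± 0.263 in N_P and 1.10 ± 0.442 in N_I. Neutrophil markers were thus higher by a larger factor than Klra17. All 18 neutrophil markers rose in T_I against N_I, whereas 7 of 8 markers of plasmacytoid dendritic cells fell, with sums of 114 to 131 TPM in T_I and 374 to 446 TPM in N_I. Of 10 macrophage and monocyte markers, 1 rose and 9 fell. Over all genes 17.4% rose and 52.4% fell in this comparison. The part that neutrophils, plasmacytoid dendritic cells, macrophages and monocytes had in the levels of Klra17 and Klra2 was not tested.

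**Figure D2:**
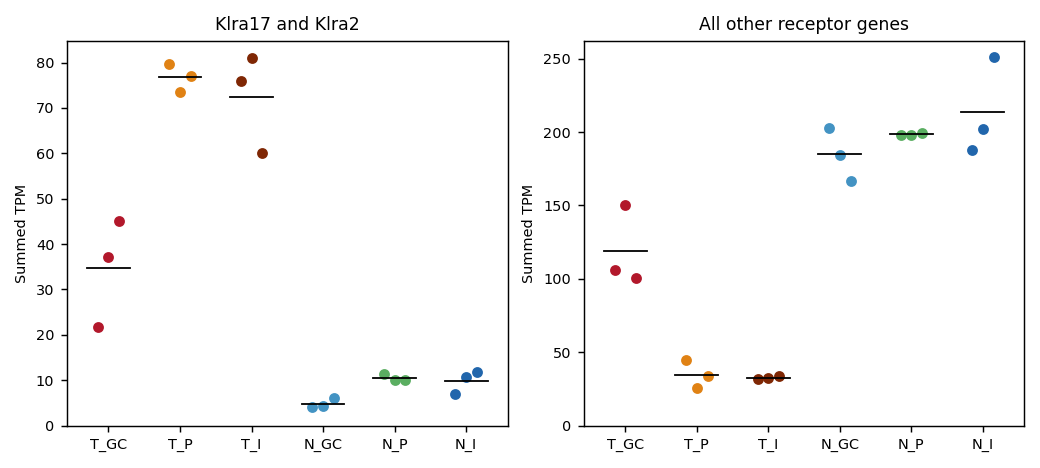
Summed TPM (linear axis from 0) of Klra17 and Klra2, left, and of all other receptor genes, right, in each library by group; lines are means of 3. The left sums reach 60.2 to 81.0 TPM in T_I and 7.04 to 11.8 TPM in N_I, and the right sums run the other way.

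The summed level of the pair averaged 34.6 ± 11.9 TPM in T_GC, 76.8 ± 3.05 in T_P and 72.3 ± 10.8 in T_I, against 4.81 ± 1.09 in N_GC, 10.5 ± 0.684 in N_P and 9.86 ± 2.51 in N_I. All other receptor genes together summed to 119 ± 27.4 TPM in T_GC, 34.8 ± 9.35 in T_P and 32.6 ± 0.944 in T_I, against 185 ± 17.8 in N_GC, 199 ± 0.678 in N_P and 214 ± 33.2 in N_I. The pair therefore made up 22.6% ± 7.36 of the receptor transcripts in T_GC, 69.2% ± 4.92 in T_P and 68.7% ± 4.01 in T_I, against 2.58% ± 0.814 in N_GC, 5.01% ± 0.320 in N_P and 4.38% ± 0.715 in N_I. These sums follow from the split just described and carry no test.

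Klrk1 and Klrd1, the most abundant NK-type receptors in N spleens, had the lowest log2(TPM + 1) fold changes in T_I against N_I; with a pseudocount of 0.1 the Klra4 row, at −3.59, lay between Klrk1 at −3.60 and Klrd1 at −3.48. Klrk1, which encodes NKG2D, had 18.4, 28.6 and 10.9 TPM in T_GC, 5.66, 2.14 and 6.07 TPM in T_P and 3.31, 2.61 and 2.65 TPM in T_I. It had 29.3, 32.0 and 23.7 TPM in N_GC, 33.2, 37.8 and 31.4 TPM in N_P and 34.4, 33.7 and 39.1 TPM in N_I. T_I and T_P were far below their N groups, while the T_GC library 21 lay within the N_GC range. Klrk1 fell by 3.25 ± 0.30 log2 units in T_I against N_I (adjusted p = 1.92e-07) and by 2.73 in T_P against N_P (adjusted p = 1.20e-06).

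Klrd1, the CD94 chain shared by the NKG2 heterodimers, had 9.17, 22.8 and 20.2 TPM in T_GC, 4.75, 3.22 and 2.63 TPM in T_P and 2.44, 4.43 and 3.18 TPM in T_I. Its N levels were even, at 38.7, 32.3 and 35.3 TPM in N_GC, 33.8, 34.9 and 34.9 TPM in N_P and 33.7, 36.4 and 42.0 TPM in N_I. No T library reached an N library. Klrd1 fell by 3.16 ± 0.26 log2 units in T_I against N_I (adjusted p = 5.60e-08) and by 2.998 in T_P against N_P.

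Of the chains that pair with CD94, Klrc2 (NKG2C, activating) was the most abundant. It had 9.77, 12.3 and 9.29 TPM in T_GC, 3.41, 0.96 and 2.18 TPM in T_P and 2.40, 2.02 and 2.66 TPM in T_I, against 19.7, 21.1 and 20.3 TPM in N_GC, 17.1, 15.6 and 17.2 TPM in N_P and 17.6, 21.4 and 28.1 TPM in N_I. Klrc1 (NKG2A, inhibitory) averaged 2.15 ± 0.356 TPM in T_GC, 0.330 ± 0.265 in T_P and 0.517 ± 0.140 in T_I, against 5.14 ± 0.748 in N_GC, 4.24 ± 0.327 in N_P and 5.43 ± 0.544 in N_I. The order of the 6 group means was the same for both genes. In T_I against N_I, the log2 fold change was −2.78 ± 0.23 for Klrc2 and −2.09 ± 0.16 for Klrc1. Klrc3 (NKG2E), at 0.187 ± 0.169 TPM in T_I and 1.78 ± 1.03 TPM in N_I, fell by 1.17 ± 0.27. Across the alternatives run, the values reached −3.19 for Klrc1, −3.17 for Klrc2 and −2.81 for Klrc3, so the 3 falls are not ranked here. The Klrc2 to Klrc1 ratio was 4.91 ± 0.733 in T_GC, 4.86 ± 1.66 in T_I, 4.01 ± 0.525 in N_GC, 3.92 ± 0.113 in N_P and 4.17 ± 1.27 in N_I. These means were given no test; the 3 T_GC ratios lay above the 3 N_P ratios. In T_P it was 14.7 ± 15.1, because library 39, with Klrc1 at 0.03 TPM, gave 32.

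Among the Ly49 receptors known from NK cells, Klra3 (Ly49C, inhibitory) had 8.87, 9.62 and 5.70 TPM in T_GC, 2.43, 1.49 and 1.56 TPM in T_P and 1.60, 1.76 and 2.27 TPM in T_I, against 16.5, 8.53 and 10.2 TPM in N_GC, 11.01, 14.3 and 15.8 TPM in N_P and 13.2, 14.7 and 21.6 TPM in N_I. Klra7 (Ly49G, inhibitory) averaged 4.76 ± 1.91 TPM in T_GC, 1.42 ± 0.688 in T_P and 1.09 ± 0.361 in T_I, against 5.10 to 6.23 over the N_GC libraries, 9.87 ± 0.849 in N_P and 8.70 ± 0.802 in N_I. In T_I against N_I the log2 fold changes were −2.58 ± 0.25 for Klra3, −2.23 ± 0.24 for Klra7, −1.88 ± 0.18 for the Klra4 row and −1.66 ± 0.37 for the pseudogene row Klra13-ps. The Klra4 row, whose source in Balb/c is uncertain, is the one activating Ly49 receptor among these. Klra1 (Ly49A) and Klra5 (Ly49E), inhibitory receptors with group means of at most 2.06 TPM, had log2 fold changes of −1.10 ± 0.37 (adjusted p = 0.0164) and −0.66 ± 0.21 (adjusted p = 0.0108). The Klra1 call was lost without T_I library 12 (adjusted p = 0.0722), without N_I library 96 (adjusted p = 0.0920) and with median-of-ratios scaling (0.0579), and the Klra5 call without N_I library 18 (adjusted p = 0.0549).

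The NKR-P1 genes divided. Klrb1c, which encodes the NK1.1 antigen in C57BL/6 and is activating, averaged 5.41 ± 1.10 TPM in T_GC, 1.22 ± 0.591 in T_P and 1.28 ± 0.382 in T_I, against 9.64 ± 2.42 in N_GC, 8.10 ± 1.12 in N_P and 8.87 ± 3.13 in N_I. Klrb1a, also activating, and Klrb1b, the inhibitory receptor for Clec2d, likewise had their lowest means in T_P and T_I. In T_I against N_I, the log2 fold changes were −2.14 ± 0.19 for Klrb1a, −2.08 ± 0.25 for Klrb1c and −1.84 ± 0.22 for Klrb1b. Klrb1f, whose ligand is Clec2g, stood apart. It had 9.77, 11.5 and 11.7 TPM in T_GC, 9.70, 5.96 and 7.75 TPM in T_P and 9.11, 9.37 and 7.79 TPM in T_I, against 12.2, 14.2 and 12.4 TPM in N_GC, 12.6, 14.0 and 12.3 TPM in N_P and 13.6, 12.99 and 13.5 TPM in N_I. Its fall in T_I against N_I, 0.56 ± 0.13 log2 units (adjusted p = 0.00136), was not called under median-of-ratios scaling (−0.07, adjusted p = 0.709) or with TPM recomputed without the neutrophil genes (adjusted p = 0.104).

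Klre1 forms receptors with either the inhibitory Klri1 or the activating Klri2, and all 3 chains fell in T_I against N_I. Klre1 averaged 4.70 ± 1.62 TPM in T_GC, 1.52 ± 0.609 in T_P and 0.960 ± 0.279 in T_I, against 10.4 ± 0.674 in N_GC, 11.5 ± 0.930 in N_P and 11.3 ± 1.92 in N_I. Klri1 averaged 6.02 ± 0.371 TPM in T_GC, 1.53 ± 0.243 in T_P and 1.45 ± 0.386 in T_I, against 6.57 ± 1.37 in N_GC, 7.29 ± 1.51 in N_P and 7.97 ± 2.12 in N_I. In T_I against N_I, the log2 fold changes were −2.65 ± 0.20 for Klre1, −2.52 ± 0.31 for Klri2 and −1.85 ± 0.19 for Klri1. In T_GC against N_GC Klre1 alone of the 3 was called (−1.04, adjusted p = 0.00114), beside −0.31 for Klri2 (adjusted p = 0.474) and −0.09 for Klri1 (adjusted p = 0.745). Klrg1, an inhibitory receptor for cadherins found on differentiated NK and T cells, had 7.65, 7.90 and 6.12 TPM in T_GC, 2.48, 2.31 and 3.46 TPM in T_P and 2.71, 2.50 and 4.49 TPM in T_I, against 6.48, 11.1 and 5.11 TPM in N_GC, 7, 6.91 and 6.44 TPM in N_P and 4.34, 4.62 and 8.98 TPM in N_I. T_I library 27 overlapped N_I, and the fall of 0.69 ± 0.27 (adjusted p = 0.0305) was not called without T_I library 8 (adjusted p = 0.0911), T_I library 12 (adjusted p = 0.108) or N_I library 96 (adjusted p = 0.174), or with median-of-ratios scaling (−0.26, adjusted p = 0.406).

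The T_P spleens gave the same picture against N_P. Of the 21 receptors 20 were called, 2 higher and 18 lower, beside 69.2% of all genes (18.9% higher and 50.3% lower), with a median log2 fold change of −1.997 for the receptors and −0.41 for all genes. Klra1 was the receptor not called (−0.58, adjusted p = 0.184). Klra5, at −0.53, lost its call without T_P library 26 (adjusted p = 0.116), T_P library 43 (adjusted p = 0.0566) or N_P library 38 (adjusted p = 0.152). Compared directly, T_P against T_I called 0 of the 21 by limma, beside 0.012% of all genes. An unadjusted p under 0.05 was found for 0 of the 21 and for 1010 of all 16635 genes. Log2 fold changes ran from −0.21 for Klrc1 to 0.46 for Klrk1, and the 95% confidence intervals of all 21 lay between −0.74 and 1.10, so differences of that size were not resolved.

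Averaged over the 3 codes, T against N called all 21, 2 higher and 19 lower, beside 77.5% of all genes (21.2% higher and 56.2% lower). The Klra1 call was lost there without T_GC library 10, T_P library 39, T_I library 12, N_P library 17 or N_I library 96 (adjusted p-values from 0.0543 to 0.0569), and those of Klra1, Klra5, Klrb1f and Klrg1 with median-of-ratios scaling (0.0511 to 0.143). In T_GC spleens fewer receptors differed from N. Of the 21, 10 were called in T_GC against N_GC, beside 33.3% of all genes (14.3% higher and 18.9% lower). Klra17 and Klra2 were the 2 higher, and 8 were lower, namely Klrd1 by −1.07 ± 0.26 log2 units (adjusted p = 0.00542), Klre1 by −1.04, Klrc1 by −0.96, Klrc2 by −0.91, Klra4 by −0.83, Klrb1a by −0.73, Klrb1c by −0.72 and Klrb1b by −0.65. The median was −0.31 for the receptors and −0.09 for all genes, and the libraries did not overlap for 11 of the 21, beside 41.5% of all genes. Klrb1c and Klrb1b were the least stable calls. Both were lost under median-of-ratios scaling (adjusted p = 0.0760 and 0.0926) and with TPM recomputed without the neutrophil genes (0.0677 and 0.0692). They were also lost with a pseudocount of 0.1, without a filter and in the fit of only these libraries. Klrb1c was not called without T_GC library 10 (adjusted p = 0.0517), T_GC library 37 (0.126), N_GC library 11 (0.145) or N_GC library 94 (0.0631), nor Klrb1b without T_GC library 10 (0.127), T_GC library 37 (0.0956), N_GC library 11 (0.0920), N_GC library 36 (0.0962) or N_GC library 94 (0.0594). Klrk1 had a log2 fold change of −0.62 (adjusted p = 0.128), which was −0.94 (adjusted p = 0.0271) without T_GC library 21. Klri1 stood at −0.09, Klra5 at 0.10, Klrc3 at 0.31 and Klrg1 at −0.00, with adjusted p-values from 0.399 to 0.999.

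**Figure D3:**
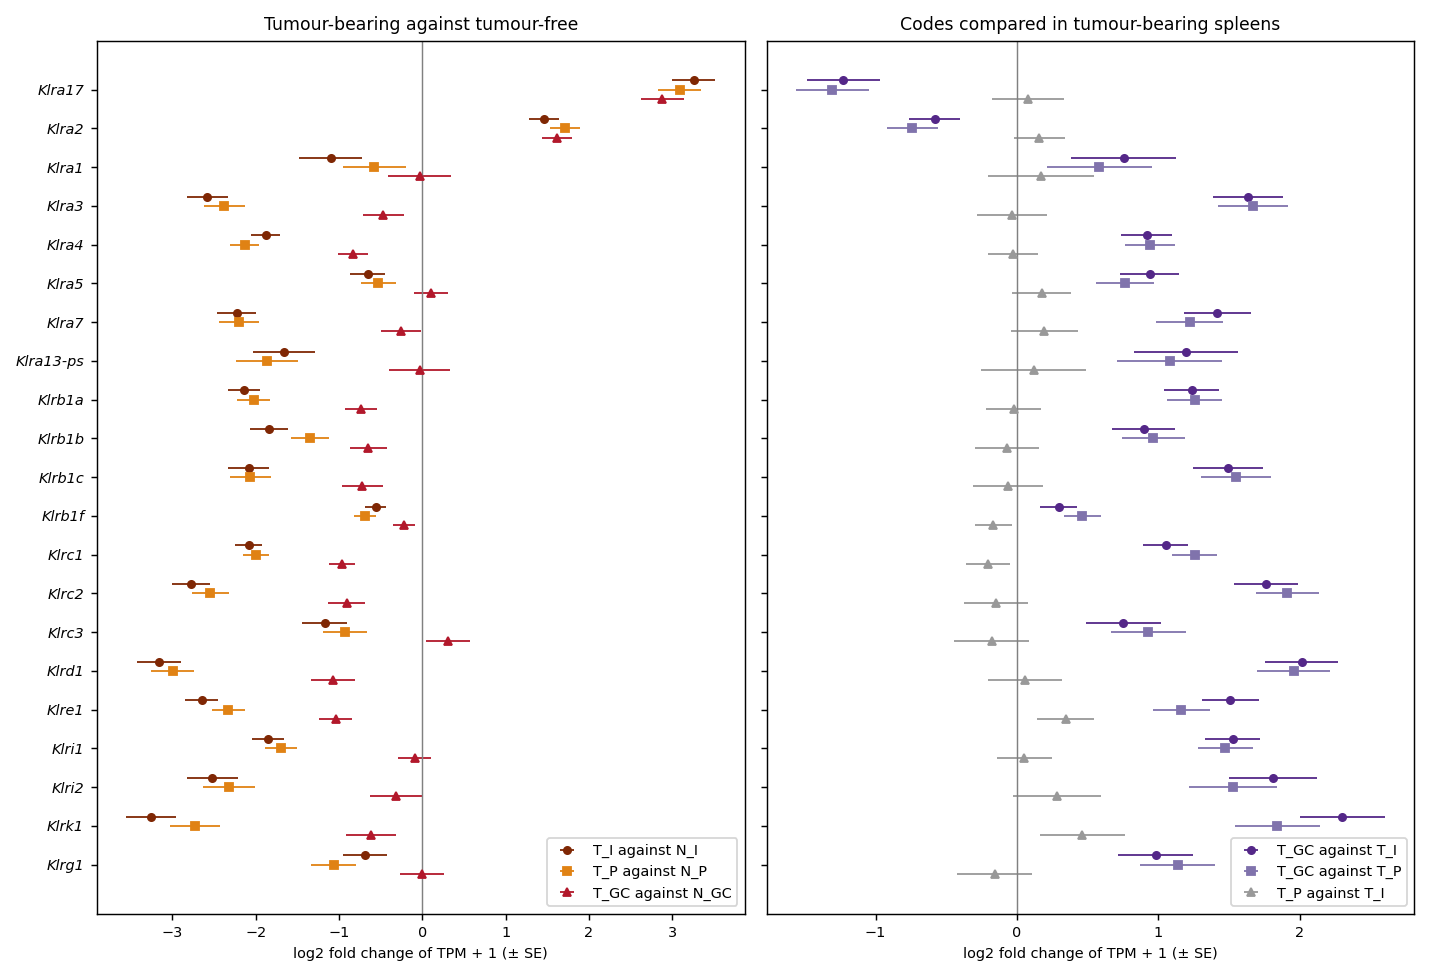
Log2 fold change of TPM + 1 with its SE for each expressed receptor, in tumour-bearing against tumour-free groups, left, and between codes in tumour-bearing spleens, right. On the left the T_GC against N_GC points of most receptors lie nearer to 0 than those of T_I and T_P; on the right Klra17 and Klra2 are the receptors below 0 in T_GC against T_I and T_GC against T_P, and T_P against T_I points lie between −0.21 and 0.46.

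Within tumour-bearing spleens most receptors, like most genes, differed between code GC and codes I and P. In T_GC against T_I, 19 of 21 were called, 17 higher and 2 lower, beside 61.5% of all genes (48.7% higher and 12.7% lower), with a median of 1.20 for the receptors and 0.38 for all genes. Under median-of-ratios scaling, which gave 3830 genes higher and 4717 lower, 16 receptors were higher and 2 lower. Klrk1 was higher by 2.30 ± 0.30 log2 units (adjusted p = 1.31e-05), Klrd1 by 2.01 ± 0.26, Klri2 by 1.81 ± 0.31, Klrc2 by 1.76 ± 0.23 and Klra3 by 1.63 ± 0.25. Klra17 fell by 1.23 ± 0.26 (adjusted p = 0.000804) and Klra2 by 0.58 ± 0.18 (adjusted p = 0.0114). The Klra2 call was lost without T_GC library 10 (adjusted p = 0.0665) or T_I library 8 (adjusted p = 0.0600). Klra1 (0.75, adjusted p = 0.0942) and Klrb1f (0.30, adjusted p = 0.0615, and −0.14 with median-of-ratios scaling) were not called. Without T_GC library 10, Klra1 (adjusted p = 0.0405) and Klrb1f (adjusted p = 0.0390) were called and Klrc3 (0.75 with all libraries) was not (0.63, adjusted p = 0.0872). Klrc3 was also not called without T_GC library 37 (adjusted p = 0.0607) or T_I library 8 (adjusted p = 0.0852), nor Klra13-ps without T_GC library 21 (adjusted p = 0.0666). The sum of NK markers was 470 to 690 TPM in T_GC and 197 to 227 TPM in T_I, and 12 of the 14 were called higher and 1 lower. Other markers were called higher too: 8 of 8 for B cells (median 2.08), 12 of 12 for T cells (1.81) and 7 of 8 for plasmacytoid dendritic cells (1.35). Of 10 macrophage and monocyte markers 8 were higher and 1 lower (1.47), and all 18 neutrophil markers were lower.

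T_GC against T_P, which uses the same T_GC libraries, called 20 of 21, 18 higher and 2 lower, beside 61.8% of all genes (49.1% higher and 12.7% lower). Klra17 fell by 1.31 and Klra2 by 0.74 log2 units, while Klrd1 was higher by 1.96, Klrc2 by 1.91 and Klrk1 by 1.84. Klra13-ps (1.08, adjusted p = 0.0196) was not called without T_GC library 21 (adjusted p = 0.112), T_P library 39 (adjusted p = 0.0951) or T_P library 43 (adjusted p = 0.0613). Klrb1f (0.46, adjusted p = 0.00647) was not called with median-of-ratios scaling (0.02, adjusted p = 0.920).

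Without a tumour, few receptors were called between code GC and the other codes. N_GC against N_I called 1 of 21, Klra2, lower by −0.74 ± 0.18 log2 units (adjusted p = 0.0415, and −0.58 in T_GC against T_I), beside 2.75% of all genes (0.451% higher and 2.3% lower). An unadjusted limma p under 0.05 was found for 4 of 21 receptors and for 2622 of all 16635 genes. The Klra2 call was lost without any 1 of N_GC libraries 11, 36 and 94 or N_I libraries 92 and 96. Klra17 had −0.85 ± 0.26 (adjusted p = 0.102), and was called without N_I library 18 (adjusted p = 0.0488). N_GC against N_P called 0 by limma, beside 1.17% of all genes. Here 3 receptors had an unadjusted p under 0.05, beside 2371 of all 16635 genes. Klra17 was at −1.10 ± 0.26 (adjusted p = 0.0527) and passed without N_GC library 94 (adjusted p = 0.0332). N_P against N_I called 0 by limma, beside 0.571% of all genes, and 1 receptor had an unadjusted p under 0.05, beside 2247 of all 16635 genes. The neutrophil markers summed to 619 to 1281 TPM in N_GC, 3136 to 5046 TPM in N_P and 2309 to 7321 TPM in N_I, and their part in the levels of Klra17 and Klra2 was not tested.

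The difference between these contrasts was tested as the interaction of code GC with tumour, T_GC against T_I minus N_GC against N_I. It was called for 15 of 21 receptors, all 15 higher, beside 40.4% of all genes (33.4% higher and 6.93% lower). Its median was 1.41 for the receptors and 0.34 for all genes. Under median-of-ratios scaling 14 receptors were higher, beside 2286 genes higher and 3275 lower. On the log2(TPM + 1) scale without that scaling, Klrk1 had the largest value, 2.63 ± 0.43 log2 units (adjusted p = 0.000262), followed by Klri2 at 2.21, Klra3 at 2.11 and Klrd1 at 2.09. This order did not hold under every alternative run, where Klrc3 reached 3.53 and Klra13-ps 2.86, while Klrk1 reached at most 2.97. Klra17 (−0.38 ± 0.36, adjusted p = 0.434) and Klra2 (0.15 ± 0.25, adjusted p = 0.662) were not called, with 95% confidence intervals from −1.15 to 0.40 and from −0.39 to 0.70. The interaction of code P with tumour called 0 of 21 by limma, beside 0.018% of all genes. An unadjusted p under 0.05 was found for 0 of 21 and for 1146 of all 16635 genes. The 95% confidence intervals of all 21 lay between −1.32 and 1.66.

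To see how the receptors moved beside other NK transcripts, each was set against the mean log2(TPM + 0.1) of 5 NK genes outside the family, Ncr1 (NKp46), Prf1 (perforin), Eomes, S1pr5 and Il2rb. Their mean differed by −3.05 log2 units between T_I and N_I, by −3.06 between T_P and N_P and by −0.98 between T_GC and N_GC. The 5 are among the 14 NK markers, whose median log2(TPM + 1) fold changes were −2.59, −2.63 and −0.88 in these comparisons. The full list of 14 was not tried as a reference, so small changes relative to the 5 may depend on their choice. Ncr1 itself averaged 17.6 ± 6.19 TPM in T_GC, 4.77 ± 2.73 in T_P and 4.30 ± 0.955 in T_I, against 38.03 ± 3.40 in N_GC, 42.9 ± 4.00 in N_P and 43.8 ± 9.18 in N_I. Relative to the 5 genes, 6 of 21 receptors were called in T_I against N_I, beside 89.1% of all genes (89.1% higher and 0.0902% lower). Klra17 was higher by 6.52 ± 0.33, Klra2 by 4.68 ± 0.25, Klrb1f by 2.44 ± 0.20, Klrg1 by 2.21 ± 0.28 and Klri1 by 0.68 ± 0.26, and Klrk1 was lower by −0.56 ± 0.22 (adjusted p = 0.0261). With so large a share of all genes called, the adjustment changed p-values little, and the unadjusted limma p was 0.0228 for Klrk1 and 0.0173 for Klri1. The count of receptors called depends on the pseudocount, since 16 were called with a pseudocount of 1. Klrk1 lost its call against Ncr1 alone (−0.28, adjusted p = 0.390) and without T_I library 12 or 27 or N_I library 18 or 92, with adjusted p-values from 0.0550 to 0.0764. Klri1 lost its call without T_I library 8 (adjusted p = 0.0896), N_I library 18 (adjusted p = 0.0910) or N_I library 96 (adjusted p = 0.0609).

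**Figure D4:**
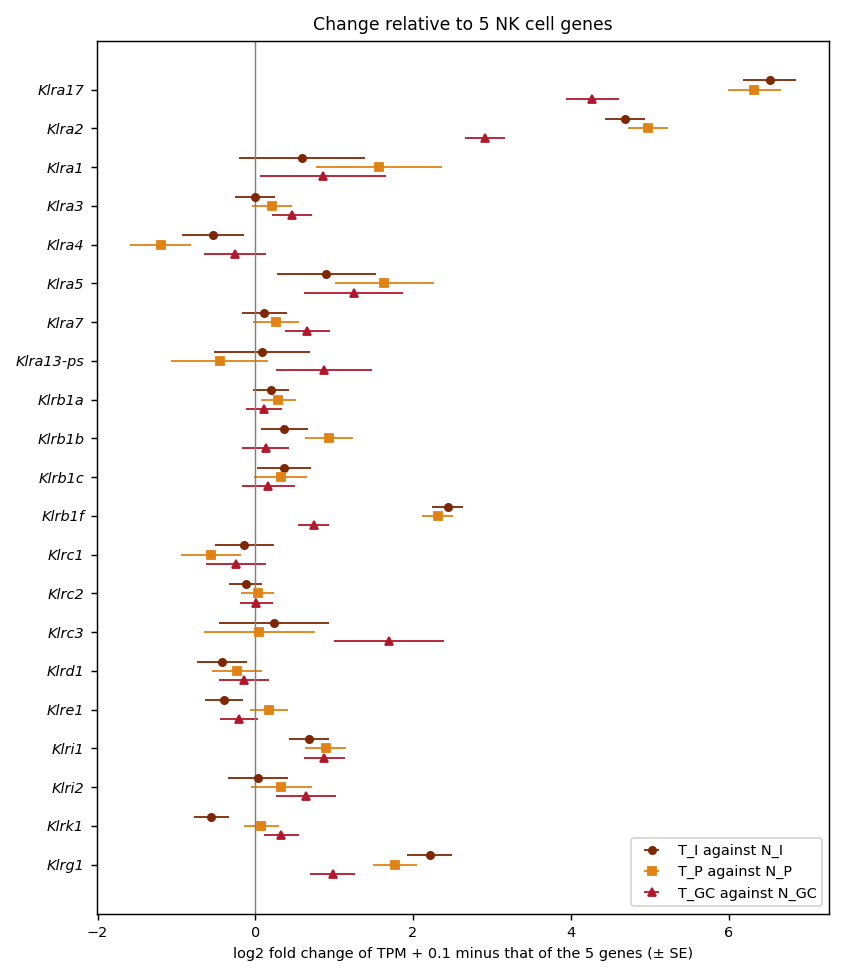
Log2 fold change of TPM + 0.1 of each expressed receptor minus that of the mean of 5 NK genes, with its SE, in the 3 tumour-bearing against tumour-free comparisons; 0 means a change equal to that of the 5 genes. Klra17, Klra2, Klrb1f, Klrg1 and Klri1 were called to the right of 0 in all 3, Klra4 lies to its left with −1.20 in T_P against N_P, and Klrd1, Klrc2 and Klrk1 lie within 0.56 of it.

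Klrd1 at −0.43 ± 0.32 and Klrc2 at −0.12 ± 0.21 were not called relative to the 5 genes in T_I against N_I. Most of the family lay near 0 on this scale in that comparison, with a median of 0.20 beside 2.50 for all genes. The medians were 0.29 beside 2.56 in T_P against N_P. In T_GC against N_GC they were 0.65 beside 0.88, so there the receptor median was closer to that of all genes. In T_P against N_P, 8 of 21 were called (7 higher and 1 lower), beside 89.9% of all genes (89.8% higher and 0.15% lower), and in T_GC against N_GC, 6, all higher, beside 67%. Averaged over codes 9 were called, beside 92.6%. With a pseudocount of 1 these counts were 16, 10 and 17. Besides the receptors called higher in all of these, Klra5 (1.63, adjusted p = 0.0213) and Klrb1b (0.94, adjusted p = 0.00749) were called higher in T_P against N_P. In T_GC against N_GC Klrc3 was the other one (1.70, adjusted p = 0.0407). Averaged over codes the others were Klra5 (1.26), Klra1 (1.01, adjusted p = 0.0472) and Klrb1b (0.48). Klrb1f was higher by 2.31 ± 0.20 in T_P against N_P and by 0.74 ± 0.20 in T_GC against N_GC, and Klrg1 by 1.77 ± 0.28 and 0.98 ± 0.28 in these comparisons. Klri1 was higher by 0.89 ± 0.26 in T_P against N_P (adjusted p = 0.00357) and by 0.88 ± 0.26 in T_GC against N_GC (adjusted p = 0.00721). The Klra4 row was the one called lower in T_P against N_P (−1.20 ± 0.39, adjusted p = 0.00806) and averaged over codes (−0.66, adjusted p = 0.00987), but with a pseudocount of 1 it was higher, by 0.59 (adjusted p = 0.00518) and 0.49 (adjusted p = 0.000224), and against Ncr1 alone the averaged call was lost (adjusted p = 0.112). In T_GC against T_I, 5 were called beside 79.9% of all genes: Klra17 at −3.34, Klra2 at −2.71, Klrb1f at −1.76, Klrg1 at −0.91 and Klrk1 at 0.53. The Klrk1 call was lost without T_GC library 10 or 21 or T_I library 12 or 27, and those of Klrk1 (adjusted p = 0.0695) and Klrg1 (adjusted p = 0.0926) against Ncr1 alone. The Klrg1 call was also lost without T_I library 27 (adjusted p = 0.0555). In T_GC against T_P, 3 were called lower, Klra17, Klra2 and Klrb1f, beside 76.9% of all genes. The ratio of Klrg1 to Klrk1 was 0.418 ± 0.144 in T_GC, 0.696 ± 0.339 in T_P and 1.16 ± 0.471 in T_I, against 0.260 ± 0.0733 in N_GC, 0.200 ± 0.0148 in N_P and 0.164 ± 0.0569 in N_I.

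The adaptors that carry the signals of these receptors did not move as one. Of 16 adaptor and signalling genes 3 rose and 10 fell in T_I against N_I, beside 17.4% of all genes higher and 52.4% lower. Tyrobp (DAP12), the adaptor of activating Ly49 and NKG2C receptors and of many myeloid receptors, averaged 594 ± 128 TPM in T_GC, 1112 ± 42.7 in T_P and 1063 ± 53.7 in T_I, against 239 ± 26.7 in N_GC, 314 ± 11.8 in N_P and 390.0 ± 71.8 in N_I, and rose by 1.46 ± 0.15 log2 units in T_I against N_I (adjusted p = 4.64e-07). Hcst (DAP10), the adaptor of NKG2D, was at 84.5 ± 9.79 TPM in T_I and 98.6 ± 6.87 TPM in N_I (−0.22, adjusted p = 0.231), while Cd247, the CD3 zeta chain, was at −2.44 and Lat, a signalling scaffold of T cells and NK cells, at −2.62, both called. Of 19 other NK receptors 4 rose and 13 fell, of 14 effector molecules 1 rose and 12 fell, and of 12 transcription factors 1 rose and 9 fell, beside the same 17.4% and 52.4% of all genes.

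The ligand genes also moved in different directions. Of 9 NKG2D ligand genes looked for, Raet1a, Raet1b, Raet1c and H60a were not among the genes of the data, and H60c was not expressed. Of the 4 tested in T_I against N_I, 3 rose, Raet1d, Raet1e and Ulbp1, and H60b fell. Over all genes 17.4% rose and 52.4% fell. Raet1d averaged 1.61 ± 0.390 TPM in T_GC, 18.0 ± 1.82 in T_P and 15.2 ± 4.50 in T_I, against 0.183 ± 0.318 in N_GC, 0.570 ± 0.199 in N_P and 0.340 ± 0.295 in N_I, and Raet1e rose by 3.26 ± 0.19 log2 units (adjusted p = 1.57e-09). The Raet1 genes are near-identical copies, so their separate values are uncertain. Which Balb/c genes gave reads to these rows of the C57BL/6 reference was not tested. NKG2D transcript was lowest in T_I and T_P, the groups in which the Raet1d and Raet1e rows were highest. A link between receptor and ligand levels was not tested. Relative to the 5 NK genes, Klrk1 was at −0.56 in T_I against N_I and at 0.08 in T_P against N_P (adjusted p = 0.746). H2-T23, which encodes the Qa-1 ligand of CD94 and NKG2, averaged 300.2 ± 18.1 TPM in T_GC, 149.6 ± 7.71 in T_P and 148 ± 12.6 in T_I, against 407 ± 30.9 in N_GC, 418 ± 13.8 in N_P and 405 ± 12.2 in N_I. All 6 MHC class I genes tested fell in T_I against N_I, beside 52.4% of all genes, and H2-L was not among the genes of the data. Clec2d, ligand of Klrb1b, averaged 53.2 ± 10.4 TPM in T_I and 131 ± 6.84 TPM in N_I, and all 3 Clec2 genes tested fell, beside the same 52.4% of all genes. Cdh1 (E-cadherin), a ligand of Klrg1, averaged 2.78 ± 0.390 TPM in T_I and 1.92 ± 0.488 TPM in N_I (0.38, adjusted p = 0.0306).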

How the data were processed

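RNA of splenocytes was sequenced, trimmed with fastp and quantified with RSEM on GRCm39, per the submitters' processing notes; versions are not given in the sources used here. The authors deposited TPM with 2 decimals, adding to between 999999.58 and 1000000.53 in each of 18 libraries. TPM keep no depth, so the depth is unknown and no count model or counting interval was used. Groups follow the sample titles, and 0 value columns were left unmapped. The receptor genes, marker lists, pathway lists and tests were chosen with earlier results of these data known.

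The model, fitted in R 4.3.3 by limma 3.58.1 to log2(TPM + 1), had 6 group means, an intensity trend and 12 residual degrees of freedom. The 16635 genes tested reached 1 TPM in 3 libraries or more. The 12 comparisons were two-sided, with Benjamini-Hochberg adjustment over all genes tested; data.table (version 1.17.8) was used. In a second fit, of 6 comparisons, log2(TPM + 0.1) was taken minus its library mean over 5 NK genes. The first fit was tested on simulated data for T_I against N_I, and the second fit was not. Named genes are all 21 expressed receptors, the 3 genes with the smallest p of other lists and Ncr1, Tyrobp, Hcst, H2-T23, Clec2d and Cdh1, of which those a result turns on are given; Ulbp1 completes the 4 NKG2D ligands tested.

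Alternatives were median-of-ratios scaling, removal of neutrophil genes before recomputing TPM, pseudocounts of 0.1 or 1, filters of 5 TPM or none, robust moderation, a fit of only the libraries compared, Ncr1 alone as the NK reference, and each library left out. Promoters are RefSeq windows of 250 bases before to 50 after a start (GRCm38.p6), searched with Python 3.11.15, pandas 2.3.3 and Biopython 1.88; figures used matplotlib 3.10.9. The identity of windows is the number of identical aligned bases over 300.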

Additional observations from a re-analysis of the deposited data

Results flagged for a closer look

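For 15 receptor genes the difference between codes GC and I was not the same with and without a tumour, by the interaction test of limma (T_GC against T_I minus N_GC against N_I, in log2 units, positive where the difference was larger with a tumour). With adjusted p-values from 0.000200 to 0.0222, the values were 2.63 for Klrk1, 2.21 for Klri2, 2.11 for Klra3, 2.09 for Klrd1, 1.97 for Klra7, 1.87 for Klrc2, 1.76 for Klri1, 1.63 for Klra13-ps, 1.61 for Klre1, 1.48 for Klrc3, 1.41 for Klrb1a, 1.36 for Klrb1c, 1.19 for Klrb1b, 1.12 for Klrc1 and 1.05 for Klra4. Over all genes 40.4% were called in this test. Cell markers were called higher in it too: 13 of 14 for NK cells (1 lower), 8 of 8 for B cells and 11 of 12 for T cells. The same held for 7 of 8 markers of plasmacytoid dendritic cells and 8 of 10 of macrophages and monocytes. Of 18 neutrophil markers 3 were higher and 2 lower. Klra13-ps was not called without T_GC library 21 (adjusted p = 0.0541), N_GC library 36 (0.0511) or N_I library 92 (0.0527), or under median-of-ratios scaling (1.45, adjusted p = 0.0543). Klra5 (0.76, adjusted p = 0.0509) was called without N_GC library 11 (0.0220) or N_I library 96 (0.0498), and Klrg1 (0.69, adjusted p = 0.161) without N_GC library 36 (0.0415). Groups of 3 were too small for a check of single outlying samples.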

How the results depend on the processing

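Of 252 pairs of receptor and comparison, 223 stayed on the same side of the call threshold under every alternative run, some uncalled ones with a change of sign, and 0 reversed while called. Over all pairs and alternatives, 79 values lost a call and 11 gained one. Leaving out 1 library gave 19 to 21 called receptors for T_I over N_I, 19 to 20 for T_P over N_P, 8 to 11 for T_GC over N_GC, 17 to 19 for T_GC over T_I, 19 to 20 for T_GC over T_P, 14 to 16 in the interaction with code GC, 0 to 2 in N_GC against N_I and 0 to 1 in N_GC against N_P. The single call in N_GC against N_I became 0 without a filter, under median-of-ratios scaling, without neutrophil genes and in the fit of only its libraries. N_GC against N_P gave 1 with a pseudocount of 0.1 and 1 with a filter of 5 TPM. Relative to the 5 NK genes, a pseudocount of 1 gave 16 calls for T_I over N_I, 16 for T_P over N_P, 10 for T_GC over N_GC, 17 averaged over codes, 12 for T_GC over T_I and 11 for T_GC over T_P, and Ncr1 alone gave 3 in T_GC against T_I; the cause was not tested. Leaving out 1 library gave 4 to 5 there in T_I against N_I, against 6 with all libraries, and 3 to 7 in T_GC against T_P (7 without T_P library 26, 5 without T_P library 43). In T_GC against N_GC, Klrd1 lost its call in the fit of only those libraries (adjusted p = 0.0679) and Klra4 with a pseudocount of 0.1 (adjusted p = 0.0533). Median-of-ratios scaling also ended the calls of Klrb1f (−0.24, adjusted p = 0.181) and Klra5 (adjusted p = 0.0996) for T_P over N_P and of Klrg1 for T_GC over T_I (0.60, adjusted p = 0.0722). Relative to the 5 NK genes, Klrg1 was called for T_GC over T_P without T_P library 26 (−0.77, adjusted p = 0.0293), as were Klra4 (1.17, adjusted p = 0.00351) and Klrc2 (0.67, adjusted p = 0.00412), and Klrd1 averaged over codes without T_GC library 37 (−0.37, adjusted p = 0.0495). With a pseudocount of 1 the Klra4 row reversed relative to them, to 0.80 for T_I over N_I, 0.59 for T_P over N_P, 0.49 averaged over codes, −0.86 for T_GC over T_I and −0.73 for T_GC over T_P; the cause was not tested. No paired analysis was possible because no replicate number occurs in more than 1 group. Genes near 1 TPM limit the precision, and the depth is unknown.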
